A study of Mus musculus with 15 samples.

Results

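Endothelial cells that line the vessels of white adipose tissue (WAT) were compared with epithelial cells that line the airways and air spaces of the lung, by RNA sequencing of sorted cells. The comparison held the 3 libraries titled as WAT CD31+ endothelial cells and the 3 titled as lung EpCAM+ epithelial cells, 6 of the 15 libraries of the series, and a library was taken into it by its title alone. All libraries came from C57BL/6 mice that carry an IL-33-citrine reporter, on 1 allele according to the design note, and the cells were untreated and were lysed after the sort without culture. The endothelial gate was Lin-CD45-EpCAM-CD31+ and the epithelial gate was Lin-CD45-EpCAM+. According to the submitters, each of the 3 replicates of a population came from an independent experiment. The age of the mice and the number of mice behind a library are not given in the sources used here. The other 9 libraries were stromal cells (MSC) sorted as EpCAM-CD31- and PDGFRα+, with 3 libraries each of Il33+ and Il33- cells from WAT and of Il33+ cells from lung, and served here as the reference for stromal levels and in 1 alternative fit. Tissue and cell type changed together between the 2 populations, so a difference of organ and a difference of cell type cannot be told apart.

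Endothelium and epithelium are both sheets of polarized cells that separate compartments, and each holds its neighbours through adherens junctions built on a cadherin and through tight junctions built on claudins. Vascular endothelium uses VE-cadherin and claudin-5, lets fatty acids and fluid cross to the tissue, and controls clotting and the entry of leukocytes. Airway and alveolar epithelium uses E-cadherin and several other claudins, is held together further by desmosomes on keratin, moves sodium, chloride and water to set the liquid layer on its surface, and secretes surfactant and secretoglobins.

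Levels are given in RPKM, a read density that is divided by transcript length and by the mapped reads of the library, as deposited for 12698 transcripts and summed here over the transcripts of each of 10222 gene symbols. The 6 libraries held 42711843 to 60773158 alignments each. Differences are given on the log2(RPKM + 1) scale as endothelial minus epithelial with their standard error (SE). The added 1 makes differences of weakly expressed genes look smaller than they are. The differences were tested with limma over the 9261 genes that reached 1 RPKM in at least 3 of the 6 libraries, with a Benjamini-Hochberg adjusted p threshold of 0.05, and a gene is called higher or lower only where it passed. By that rule 2560 genes (27.6%) passed, of which 1377 (14.9% of those tested) were higher in the endothelial and 1183 (12.8%) in the epithelial libraries. In 23.2% of the tested genes all 3 endothelial libraries lay above all 3 epithelial ones, and in 18.7% all lay below. The median difference over all tested genes was 0.08. Median-ratio scaling of the libraries moved that median to -0.14 and left 30.2% of the genes past the threshold, 1198 of them higher in the endothelial and 1589 (17.2% of those tested) in the epithelial libraries, so that the endothelial share of the calls fell to 43.0% from 53.8%. Endothelial replicates 1 and 2 and epithelial replicate 1 were in sequencing lane 1 and the other libraries in lane 2, and all 2560 genes kept their direction within each lane, which is a description because they were chosen on the same libraries. Leaving out 1 library at a time left 1085 (without epithelial replicate 2) to 2668 genes (without endothelial replicate 1) past the threshold, with fewer genes tested. The 3 libraries of a population are independent experiments, but with 3 against 3 an exact permutation test of a single gene could not give p below 0.1.

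The libraries were not equally alike. The correlation of log2 values was 0.918 between endothelial replicates 2 and 3, but 0.773 and 0.774 between replicate 1 and the others, and 10.9% of the transcripts were listed at 0 in replicate 1 against 2.58% to 3.78% in the other two. The epithelial libraries correlated at 0.868 to 0.943 with each other and at 0.415 to 0.509 with the endothelial ones. A single secretoglobin, Scgb1a1, has a spliced length of 476 bases in the GENCODE annotation, and with that length its RPKM corresponded to 7.65%, 9.90% and 8.55% of the mapped reads of the 3 epithelial libraries, which lowers every other RPKM there by that share.

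The labels of both populations were first checked on marker genes. Of 20 genes of endothelial identity, 19 were higher in the endothelial libraries and 0 were lower, with a median difference of 3.01. Pecam1, which encodes the CD31 used in the sort and is therefore a check and not a finding, was at 198, 145 and 146 RPKM in the endothelial and at 16.4, 19.1 and 12.4 RPKM in the epithelial libraries. Emcn, the sialomucin endomucin, differed by 4.62 ± 0.39 (SE, adjusted p = 0.00011), and Vwf, the platelet-binding von Willebrand factor stored in endothelial granules, by 4.56 ± 0.43 (SE, adjusted p = 0.000177). Ecscr, a surface regulator of endothelial chemotaxis, did not pass (1.30 ± 0.47, SE, adjusted p = 0.0735).

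The endothelial libraries held vessels of several kinds. All 7 tested lymphatic genes were higher, among them Mmrn1, an extracellular multimerin (4.66 ± 0.36, SE), the lymphatic chemokine Ccl21a (4.02 ± 0.49, SE), the VEGF-C receptor gene Flt4 (3.54 ± 0.42, SE) and Prox1, the transcription factor of lymphatic fate (2.99 ± 0.59, SE). Pdpn, podoplanin, was the 1 lymphatic gene with higher means in WAT stroma (52.8 and 38.0 RPKM) than in the endothelial libraries (32.8 RPKM). Of 15 genes that tell arteries, veins and capillaries apart, 9 (60.0%, against 14.9% of all genes) were higher and 0 lower. Among the largest differences were those of genes of leukocyte capture on venules. Selp, P-selectin, was at 184, 61.1 and 55.1 RPKM in the endothelial libraries and at 0.95, 2.28 and 0.25 RPKM in the epithelial ones, and Sele, E-selectin, at 102, 27.5 and 19.6 RPKM against 1.64, 0.25 and 0.23 RPKM. In both selectins replicate 1 was the highest and all 3 endothelial libraries lay above the epithelial ones. Vcam1, an adhesion receptor for integrins on leukocytes, differed by 3.87 ± 0.43 (SE, adjusted p = 0.000377). Gpihbp1, which carries lipoprotein lipase across capillary endothelium, was at 1.24, 23.5 and 50.5 RPKM in the endothelial and at 6.35, 6.52 and 1.39 RPKM in the epithelial libraries, so that the groups overlapped, and it did not pass (adjusted p = 0.37).

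The epithelial libraries carried the genes of airway and of alveolar cells. Of 18 tested genes of general epithelial identity 17 were higher, with the keratin Krt7 as the exception (difference -2.08 ± 0.74, SE, adjusted p = 0.0734). Epcam, a sort gene, was at 25.9, 28.4 and 39.8 RPKM in the epithelial and at 0.02, 0.03 and 0.16 RPKM in the endothelial libraries. All 12 tested club cell genes were higher, as were 15 of 16 ciliated cell genes. Scgb1a1, the club cell secretoglobin, was at 160613, 208003 and 179632 RPKM against 75.4, 61.4 and 105 RPKM, and Dynlrb2, a dynein light chain, differed by -6.25 ± 0.32 (SE, adjusted p = 1.76e-05). Of 15 genes of alveolar type 2 cells, 12 were higher. Sftpc, surfactant protein C, was at 919, 903 and 1925 RPKM in the epithelial libraries and at 0.42, 0.46 and 1.19 RPKM in the endothelial ones. Il33, counted in that list because type 2 cells can express the cytokine, was the other way round, with 15.1, 15.98 and 21.4 RPKM in the endothelial and 3.92, 4.05 and 6.40 RPKM in the epithelial libraries (1.69 ± 0.32, SE, adjusted p = 0.00551). Its mean was 53.0 RPKM in Il33+ WAT-MSC, which were sorted for the reporter, and the part of their RNA in this difference was not tested. For the flat alveolar type 1 cell, 3 of 10 tested genes (30.0%, against 12.8% of all genes) were higher (Ager, Aqp5 and Hopx). Another 3 (30.0%, against 14.9%) were lower (Cav1, Pdpn and Spock2) and 4 did not pass. Ager, Aqp5 and Hopx had epithelial means of 11.3, 11.3 and 13.3 RPKM. Cav1, Pdpn and Spock2 had endothelial means of 253, 32.8 and 20.4 RPKM. Their means in Il33+ WAT-MSC were 59.7, 52.8 and 25.7 RPKM, and Spock2 overlapped between the 2 populations. The part of endothelial and of stromal RNA in the direction of these genes was not tested, and that direction does not measure type 1 cells. Of the 10 genes of the basal and neuroendocrine list only 2 were among the deposited genes, and 0 reached the filter. The rest of that list could not be examined. The design note describes only a digest of WAT, whereas the labels name lung for these libraries, and the secretoglobins, surfactant proteins and the lung transcription factor Nkx2-1 were all at high levels in them.

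RNA of other cells was present in the endothelial libraries. Of 24 tested stromal genes 22 were higher in the endothelial than in the epithelial libraries, with a median difference of 3.76, and for all 22 the mean of the WAT stromal libraries lay above the endothelial mean. Relative to Il33+ WAT-MSC, the median stromal gene stood at 31.0%, 35.8% and 72.6% in endothelial replicates 1, 2 and 3, a mean of 46.5% ± 22.8 (SD, n = 3), and at 1.95%, 2.10% and 4.08% in the epithelial libraries. Dcn, the matrix proteoglycan decorin, was at 936, 916 and 1472 RPKM in the endothelial and at 53.1, 29.2 and 54.7 RPKM in the epithelial libraries. Pdgfra, the surface receptor by which the MSC were sorted, was at 24.4, 28.1 and 35.7 RPKM against 8.42, 3.84 and 3.00 RPKM. The summed RPKM of the 24 genes was 3182, 3504 and 6711 in the endothelial libraries, 237 to 392 in the epithelial ones and 9416 to 12030 in Il33+ WAT-MSC. Over the whole transcriptome, the WAT stromal mean lay above the endothelial mean in 675 of the 1377 genes higher in endothelial libraries (49.0%), and under 20% of it in 226 (16.4%). Of the 1183 genes higher in epithelial libraries, the lung stromal mean lay above the epithelial mean in 13 (1.10%) and under 20% of it in 838 (70.8%). The part of stromal RNA in each endothelial difference was not tested. In sorted bulk cells, fewer cells of a type and less RNA per cell cannot be told apart.

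Genes of mural cells, and some of mesothelial and red blood cells, were also higher in the endothelial libraries. Of 10 tested pericyte and smooth muscle genes 9 were higher. Rgs5, a regulator of G-protein signalling known from pericytes, had the largest difference of all genes in that direction (6.74 ± 0.35, SE, adjusted p = 1.76e-05), with 209, 215 and 141 RPKM against 1.19, 1.07 and 0.17 RPKM, and stood at 4.39 to 11.9 RPKM in the WAT stromal means. Of 7 tested mesothelial genes 4 (57.1%, against 14.9% of all genes) were higher and 1, Krt19, was lower (14.3%, against 12.8%). The summed mesothelial list was at 58.7 RPKM in endothelial replicate 1 and at 245 and 264 RPKM in replicates 2 and 3, against 84.0, 143 and 161 RPKM in the epithelial libraries, where Krt19 gave most of the sum. Of 4 tested erythroid genes 2 were higher, the haemoglobin genes Hba-a1 and Hba-a2, whose reads cannot be told apart with certainty. Hbb-b1 and Hbb-bs overlapped between the populations and did not pass (adjusted p = 0.0605 and 0.0665), although all 4 passed with median-ratio scaling. The summed erythroid list was at 19.9 RPKM in replicate 1 and at 232 and 411 RPKM in replicates 2 and 3. In the other direction, 3 of 12 tested macrophage and leukocyte genes were higher in the epithelial libraries, namely Chil3, Ear1 and Ear2. Chil3 is abundant in alveolar macrophages and was at 41.0, 48.1 and 46.0 RPKM in the epithelial libraries. Its mean was 44.8 RPKM in lung MSC, against an epithelial mean of 45.0 RPKM. For Ear1 the lung MSC and epithelial means were 12.1 and 9.97 RPKM, and for Ear2 they were 12.1 and 12.3 RPKM. The endothelial identity list stood at a median of 6.71%, 10.9% and 8.68% of its endothelial level in the 3 epithelial libraries and at 5.14% to 7.74% in lung MSC. The general epithelial list stood at a median of 0%, 0.488% and 0.343% of its epithelial level in the endothelial libraries.

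**Figure D1:**
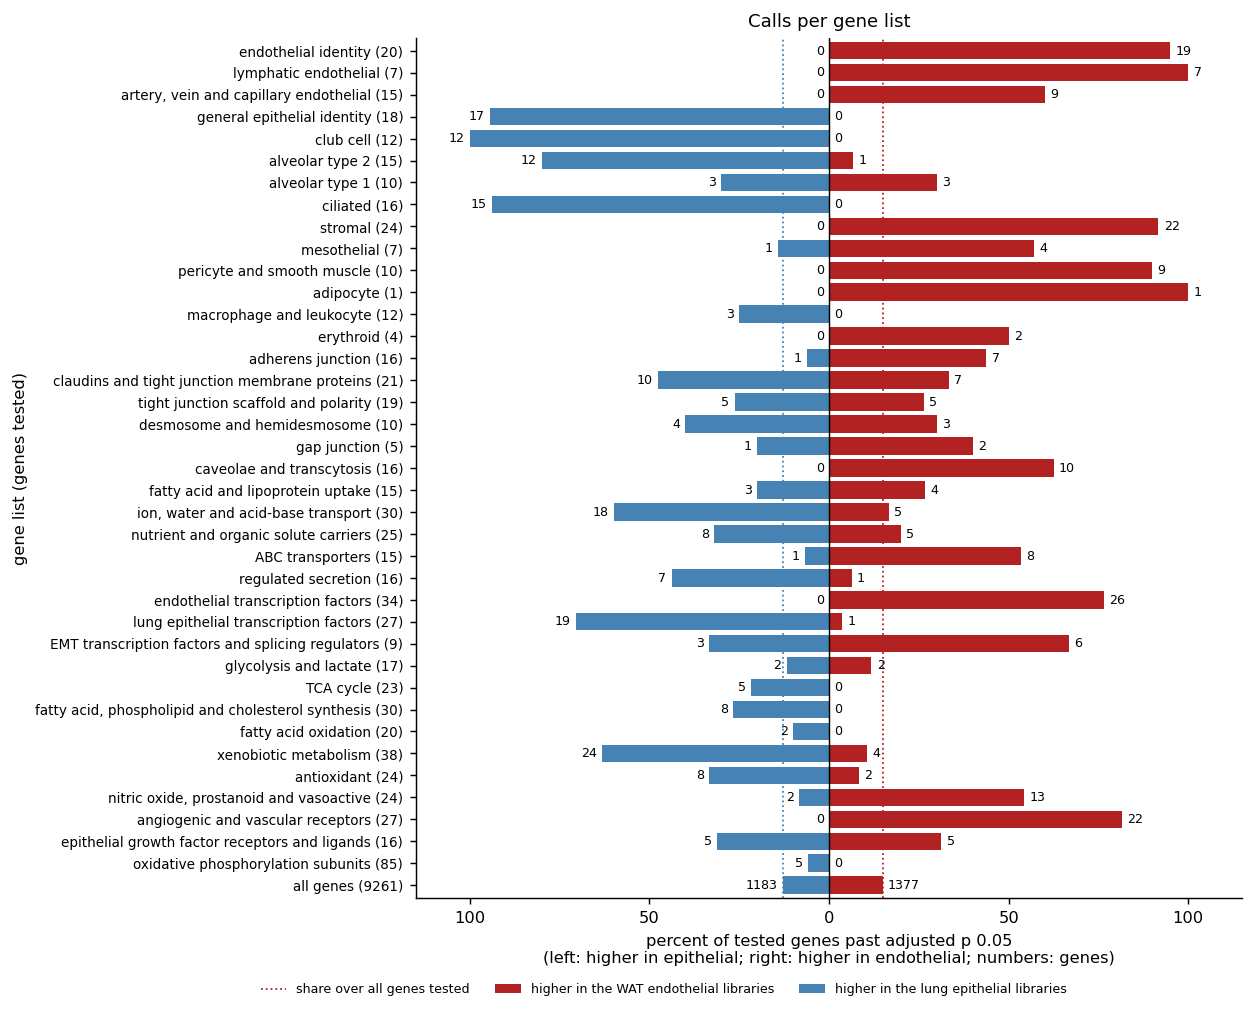
Share of the tested genes of each list past the adjusted p threshold (x axis, percent), to the right for genes higher in the 3 WAT endothelial and to the left for genes higher in the 3 lung epithelial libraries, with the number of genes beside each bar and the number tested after each list name (y axis). Dotted lines mark the shares over all 9261 genes, 14.9% to the right and 12.8% to the left. Identity lists lie almost wholly on 1 side except alveolar type 1, which is evenly divided. Junction lists have genes on both sides, the adherens junction list mostly to the right.

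Junction genes differed in both directions. Promoter sequence is shown for 5 junction genes as examples of each pattern, the endothelial Cldn5 and Gja5, the epithelial Cldn3 and Cldn18, and F11r, which passed in neither direction. Each is the 250 bases before the transcription start in RefSeq (GRCm38.p6), written 5′ to 3′ on the strand of the gene, at chr16:18776597-18776846 on the plus strand for Cldn5, chr3:97032152-97032401 on the plus strand for Gja5, chr5:134985964-134986213 on the plus strand for Cldn3, chr9:99717268-99717517 on the minus strand for Cldn18 and chr1:171437311-171437560 on the plus strand for F11r.
Cldn5: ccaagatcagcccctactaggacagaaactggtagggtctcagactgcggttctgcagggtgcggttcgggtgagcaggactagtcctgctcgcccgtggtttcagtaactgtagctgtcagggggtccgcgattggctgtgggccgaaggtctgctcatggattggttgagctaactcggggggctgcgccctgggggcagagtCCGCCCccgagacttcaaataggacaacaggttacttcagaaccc
Gja5: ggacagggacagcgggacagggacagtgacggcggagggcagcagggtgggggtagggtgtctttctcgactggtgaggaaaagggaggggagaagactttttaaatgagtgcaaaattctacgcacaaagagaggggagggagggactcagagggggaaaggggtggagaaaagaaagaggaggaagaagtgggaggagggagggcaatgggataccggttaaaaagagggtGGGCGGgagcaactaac
Cldn3: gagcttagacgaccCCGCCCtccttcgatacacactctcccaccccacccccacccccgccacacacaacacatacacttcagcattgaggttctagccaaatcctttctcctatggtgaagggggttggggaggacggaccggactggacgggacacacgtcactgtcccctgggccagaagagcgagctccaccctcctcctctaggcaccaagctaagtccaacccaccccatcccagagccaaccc
Cldn18: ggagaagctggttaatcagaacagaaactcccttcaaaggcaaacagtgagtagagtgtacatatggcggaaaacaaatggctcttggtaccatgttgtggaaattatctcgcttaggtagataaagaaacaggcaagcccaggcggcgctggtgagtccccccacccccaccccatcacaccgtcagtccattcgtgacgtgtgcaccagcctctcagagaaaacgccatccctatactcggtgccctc
F11r: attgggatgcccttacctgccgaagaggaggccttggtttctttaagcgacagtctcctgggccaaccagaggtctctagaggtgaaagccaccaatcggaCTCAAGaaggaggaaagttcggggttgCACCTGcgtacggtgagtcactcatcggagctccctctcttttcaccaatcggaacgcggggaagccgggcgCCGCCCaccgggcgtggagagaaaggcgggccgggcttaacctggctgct
Capitals mark exact matches, on either strand, to 6 motifs, the ETS site GGAAGT, the E-box CAGGTG bound by Zeb and Snail factors, the forkhead site TGTTTAC, the NKX2-1 site CTCAAG, the GC box GGGCGG and the TATA box TATAAA, none of which overlapped another. For comparison, 27025 promoter windows of the same source were cut to the same 250 bases, 1 window per symbol and with 1 chromosome left out. Among them these letters occur in 5401, 4620, 836, 3666, 8901 and 3504 windows respectively, the GC box thus in 32.9%. The Cldn5, Gja5 and Cldn3 windows held 1 GC box each, F11r held a GC box, an E-box and an NKX2-1 site, and Cldn18 held no match to these letters.

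In adherens junctions the main cadherins differed between the populations, whereas the catenins that bind them did not pass the test. Cdh5, VE-cadherin, was at 144, 191 and 178 RPKM in the endothelial and at 23.3, 33.3 and 16.9 RPKM in the epithelial libraries (2.80 ± 0.31, SE, adjusted p = 0.000377). Cdh1, E-cadherin, was at 0.05, 0.03 and 0.08 RPKM against 85.6, 108 and 113 RPKM (-6.60 ± 0.29, SE, adjusted p = 9.22e-06). Neither cadherin overlapped between the populations, and Cdh5 kept a readable level in the epithelial libraries while Cdh1 was near 0 in the endothelial ones. The endothelial identity list, of which Cdh5 is a member, stood at a median of 6.71% to 10.9% of its endothelial level in the epithelial libraries. The part of endothelial RNA in their Cdh5 level was not tested. Of 16 tested genes of the adherens list 7 (43.8%, against 14.9% of all genes) were higher in the endothelial libraries. In the epithelial libraries 1, Cdh1, was higher (6.25%, against 12.8%). The median difference was 1.06 against 0.08 over all genes. The other endothelial members included Cdh13, T-cadherin, a lipid-anchored receptor for adiponectin (3.97 ± 0.40, SE), Ptprb, the phosphatase VE-PTP that acts on VE-cadherin (3.27 ± 0.36, SE), Ctnnal1, an alpha-catenin relative (1.80 ± 0.36, SE), and Vcl, the actin linker vinculin (1.74 ± 0.32, SE). Only 1 of the 7, Nectin1, stood higher in WAT stroma than in the endothelial libraries. Ctnnb1, beta-catenin, which binds the tail of either cadherin, was at 48.9, 48.9 and 66.6 RPKM against 52.9, 80.1 and 82.5 RPKM, and Ctnna1, alpha-catenin, at 45.3, 45.7 and 50.7 RPKM against 32.4, 42.7 and 51.7 RPKM. The groups overlapped in both catenins and neither passed (adjusted p = 0.402 and 0.685).

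Tight junction membrane proteins split in both directions. Of 30 genes on that list 23 were in the file and 21 passed the filter. Of these 7 (33.3%, against 14.9% of all genes) were higher in the endothelial and 10 (47.6%, against 12.8%) in the epithelial libraries. Cldn5, the claudin of vascular endothelium, was at 26.5, 14.02 and 22.1 RPKM against 1.34, 1.68 and 1.62 RPKM (3.06 ± 0.35, SE, adjusted p = 0.000438). The immunoglobulin-like adhesion proteins Jam2 (90.3, 59.9 and 71.9 RPKM against 1.98, 2.52 and 2.94 RPKM) and Esam (37.7, 26.3 and 26.1 RPKM against 1.57, 2.79 and 6.71 RPKM) were also endothelial. Jam2 had a level in WAT stroma as well, with means of 27.8 RPKM in Il33+ and 47.1 RPKM in Il33- MSC, whereas Cldn5 was at 1.58 and 0.203 RPKM there. Clmp, an adhesion protein of the same family, was higher in the endothelial than in the epithelial libraries (3.19 ± 0.51, SE) but higher still in WAT stroma. Cldn15, a pore-forming claudin, was at 1.14, 12.6 and 15.8 RPKM in endothelial replicates 1, 2 and 3 and passed in 9 of the 17 alternative settings that could fit it. The summed mesothelial list was also lowest in replicate 1, and its part in Cldn15 was not tested.

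Of the epithelial claudins, Cldn3, Cldn18 and Cldn4 were near 0 in the endothelial libraries. Cldn10 stayed above 1 RPKM in each of them, and Cldn7 was near 0 in replicates 2 and 3 only. Cldn3 was at 55.3, 71.1 and 106 RPKM in the epithelial and at 0.02, 0.46 and 0.04 RPKM in the endothelial libraries (-6.03 ± 0.36, SE, adjusted p = 2.81e-05). Cldn18, the claudin of alveolar epithelium, was at 46.3, 33.0 and 58.4 RPKM against 0.02, 0 and 0.06 RPKM (-5.48 ± 0.34, SE, adjusted p = 3.7e-05). Cldn4 was at 6.75, 8.42 and 11.6 RPKM in the epithelial libraries and was listed at 0 in all 3 endothelial ones. Cldn10, an ion-pore claudin, was at 17.5, 17.9 and 20.1 RPKM in the epithelial and at 1.18, 1.16 and 1.91 RPKM in the endothelial libraries (-3.02 ± 0.32, SE). Cldn7 was at 4.42, 4.51 and 9.50 RPKM against 0.84, 0.03 and 0 RPKM (-2.46 ± 0.44, SE). F11r, which encodes JAM-A, an adhesion protein of both endothelial and epithelial tight junctions, was at 68.7, 39.4 and 40.1 RPKM in the endothelial and at 61.6, 39.9 and 56.4 RPKM in the epithelial libraries. The ranges of F11r overlapped fully and the difference was -0.12 ± 0.32 (SE, adjusted p = 0.831), while all 6 values lay above those of the 9 stromal libraries, whose highest was 11.2 RPKM.

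Under the membrane, the scaffold list was evenly divided, with 5 of 19 tested genes (26.3%) higher on each side and a median difference of 0.08. Over all genes the shares were 14.9% endothelial and 12.8% epithelial. Tjp1, the scaffold ZO-1, was at 86.8, 43.8 and 57.6 RPKM in the endothelial and at 17.6, 29.1 and 25.5 RPKM in the epithelial libraries (1.32 ± 0.34, SE, adjusted p = 0.0206), and passed in 13 of 21 alternative settings, but not with median-ratio scaling (adjusted p = 0.0879). Mpdz, a multi-PDZ scaffold, differed by 2.12 ± 0.36 (SE), and Amotl1, an angiomotin relative, by 2.16 ± 0.39 (SE) with a higher mean in WAT stroma. On the epithelial side were Cgn, the tight junction adaptor cingulin (-2.15 ± 0.42, SE), Crb3, the Crumbs protein of the apical membrane (-2.12 ± 0.45, SE), Shroom3, which drives apical constriction (-1.95 ± 0.36, SE), and the atypical protein kinase C genes Prkcz and Prkci (-1.73 ± 0.47 and -1.29 ± 0.39, SE). The protein kinases were less stable, with Prkcz past the threshold in 14 of 20 and Prkci in 13 of 21 alternative settings.

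Desmosome and hemidesmosome genes were split, with 30.0% of those tested endothelial and 40.0% epithelial, against 14.9% and 12.8% of all genes. Of 10 tested genes 4 were higher in the epithelial libraries, namely the desmosomal cadherin Dsg2 (-3.63 ± 0.46, SE, adjusted p = 0.000732), the plakin Dsp, desmoplakin (-3.15 ± 0.36, SE, adjusted p = 0.000441), the tetraspan protein gene Perp (-2.87 ± 0.59, SE, adjusted p = 0.0077) and the plakophilin Pkp2 (-2.22 ± 0.47, SE, adjusted p = 0.00846). Dsp was at 5.88, 9.25 and 9.95 RPKM in the epithelial and at no more than 0.06 RPKM in any endothelial library. The 3 endothelial members were Dst, the plakin dystonin (2.08 ± 0.33, SE), Itga6, the laminin-binding integrin alpha-6 (1.87 ± 0.38, SE), and Pkp4, a plakophilin relative found also at adherens junctions (1.05 ± 0.28, SE). Itgb4, the partner of integrin alpha-6 in hemidesmosomes, was at 22.3, 11.8 and 12.1 RPKM in the endothelial and at 3.46, 9.61 and 7.36 RPKM in the epithelial libraries. Although its groups did not overlap, Itgb4 did not pass (adjusted p = 0.0975).

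Of 5 tested gap junction genes 2 (40.0%, against 14.9% of all genes) were higher in the endothelial and 1 (20.0%, against 12.8%) in the epithelial libraries. Gja4, connexin 37, and Panx1, a pannexin, did not pass. Gja5, connexin 40 of arterial endothelium, was at 13.2, 13.9 and 10.0 RPKM in the endothelial and at 0.11, 0.62 and 0.21 RPKM in the epithelial libraries (3.35 ± 0.36, SE, adjusted p = 0.000321). Gja1, connexin 43, was at 31.1, 32.5 and 33.1 RPKM against 5.23, 3.50 and 9.43 RPKM, so that it was read in both populations, with higher means in WAT stroma (41.6 and 44.5 RPKM). Gjb2, connexin 26, was at 3.13, 4.99 and 4.47 RPKM in the epithelial libraries and at 0, 0.05 and 0 RPKM in the endothelial ones.

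**Figure D2:**
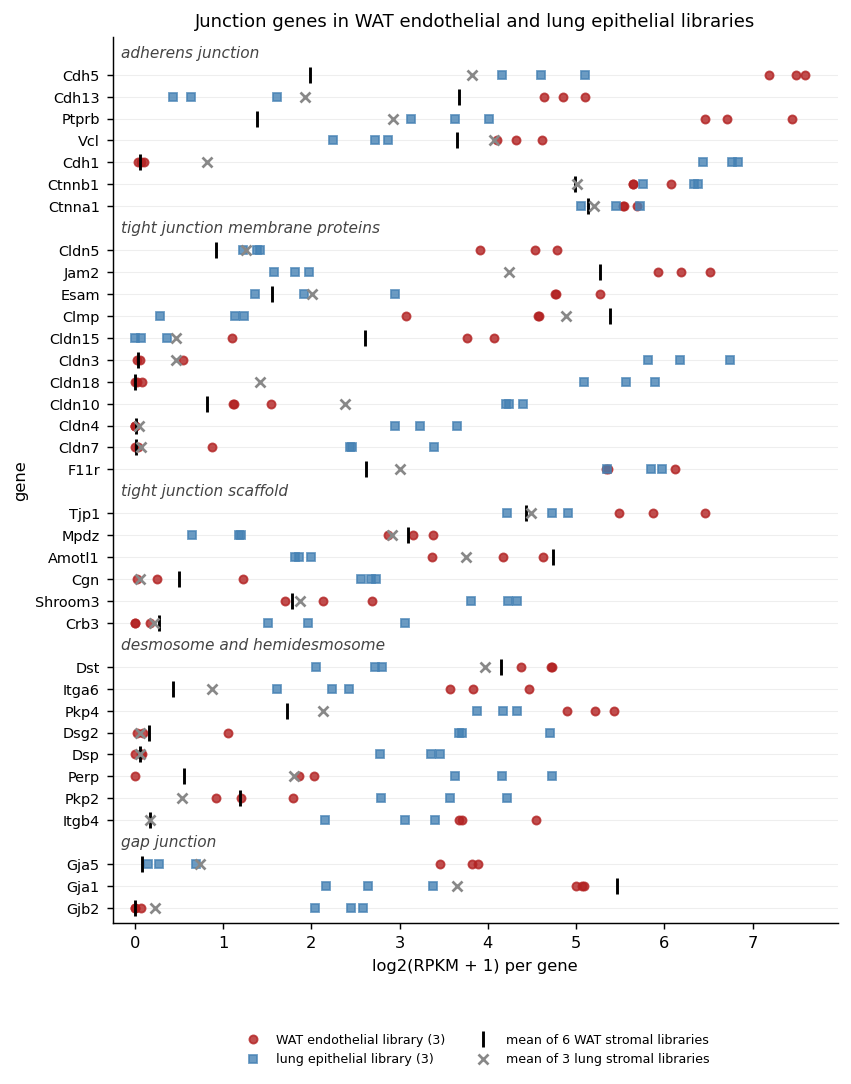
Level of junction genes (y axis, grouped by junction type) as log2(RPKM + 1) on the x axis in each of the 3 WAT endothelial (red circles) and 3 lung epithelial libraries (blue squares), with the mean of the 6 WAT stromal (black bars) and 3 lung stromal libraries (grey crosses). Cdh5 and Cldn5 lie to the right in the endothelial and Cdh1, Cldn3 and Cldn18 in the epithelial libraries, while Ctnna1 and F11r overlap, F11r above both stromal means.

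Genes of ion and water transport were mostly epithelial. Of 30 tested genes of that list 18 (60.0%, against 12.8% of all genes) were higher in the epithelial libraries, with a median difference of -1.60. In the endothelial libraries 5 were higher (16.7%, against 14.9%). Slc34a2, the phosphate carrier of alveolar type 2 cells, was at 135, 183 and 229 RPKM against 0.04, 0.06 and 0.12 RPKM (-7.38 ± 0.30, SE, adjusted p = 7.46e-06). Scnn1a, the alpha subunit of the epithelial sodium channel, was at 36.3, 64.2 and 59.5 RPKM against 0.03, 3.75 and 2.14 RPKM (-4.41 ± 0.56, SE, adjusted p = 0.000738). The inward-rectifier potassium channel Kcnj15 (-4.30 ± 0.38, SE), the chloride transporter Slc26a9 (-4.17 ± 0.35, SE) and the proton pump subunit Atp6v1c2 (-3.93 ± 0.36, SE) followed. No epithelial value of these 5 genes overlapped an endothelial one.

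Water channels divided by population. Aqp1, the water channel of many endothelia, was at 184, 130 and 104 RPKM in the endothelial and at 7.88, 10.8 and 7.91 RPKM in the epithelial libraries (3.81 ± 0.30, SE, adjusted p = 8.72e-05), and at 2.65 to 7.51 RPKM in the stromal means. Aqp7, which passes water and glycerol, was at 13.4, 42.4 and 45.1 RPKM against 0.33, 0.14 and 0.22 RPKM (4.64 ± 0.49, SE). Aqp5, the water channel of alveolar type 1 cells and airway glands, was at 0, 0.47 and 2.01 RPKM in the endothelial and at 8.29, 11.4 and 14.2 RPKM in the epithelial libraries (-2.88 ± 0.48, SE, adjusted p = 0.00289). The other endothelial members included the sodium pump subunit Atp1b3 (1.58 ± 0.38, SE) and Kcnj8, a potassium channel of pericytes that also belongs to the mural list.

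Genes of caveolae, the membrane flasks of endothelial transcytosis, were endothelial where they passed. Of 16 tested genes 10 (62.5%, against 14.9% of all genes) were higher in the endothelial and 0 in the epithelial libraries (1 with median-ratio scaling). The median difference was 2.30. Cav1, the main coat protein, was at 285, 243 and 232 RPKM against 15.4, 22.5 and 18.5 RPKM (3.69 ± 0.26, SE, adjusted p = 5.17e-05), with WAT stromal means of 59.7 and 32.2 RPKM. Plvap, which forms the diaphragms of caveolae and fenestrae and is used as a marker of endothelium, was at 63.1, 40.1 and 63.5 RPKM against 6.56, 3.64 and 3.71 RPKM (3.33 ± 0.34, SE, adjusted p = 0.000242). Ehd2, an ATPase of the caveolar neck, differed by 3.31 ± 0.31 (SE). For 3 of the 10 genes, Prkcdbp (the coat protein cavin-3), the scavenger receptor Lrp1 and the IgG carrier Fcgrt, the mean was higher in WAT stroma. Cav2, which pairs with Cav1, did not overlap between the populations but did not pass (0.92 ± 0.32, SE, adjusted p = 0.0705).

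Genes of fatty acid uptake and activation were higher on different sides. The lipid chaperone Fabp4 was at 187, 217 and 397 RPKM in the endothelial and at 0.57, 1.94 and 3.14 RPKM in the epithelial libraries (6.57 ± 0.44, SE, adjusted p = 4.37e-05), and at 6.76 and 10.7 RPKM in WAT stroma. Cd36, the fatty acid translocase, was at 88.8, 102 and 113 RPKM against 29.1, 41.9 and 47.4 RPKM (1.36 ± 0.28, SE, adjusted p = 0.00765), against stromal means of 3.30 to 8.36 RPKM. Scarb1, the HDL receptor SR-BI, differed by 2.45 ± 0.34 (SE), and Lpl, lipoprotein lipase, by 2.56 ± 0.37 (SE) with higher means in WAT stroma (154 and 230 RPKM). The 3 epithelial members of the list were all long-chain acyl-CoA synthetases, Acsl3 (-2.92 ± 0.34, SE), Acsl1 (-2.66 ± 0.40, SE) and Acsl4 (-2.03 ± 0.42, SE), which attach CoA to fatty acids inside the cell. Acsl3 was at 17.04, 16.8 and 18.7 RPKM in the epithelial and at 0.84, 1.55 and 2.12 RPKM in the endothelial libraries. Of the 15 tested genes 4 (26.7%, against 14.9% of all genes) were endothelial, 3 (20.0%, against 12.8%) were epithelial and 8 did not pass. With median-ratio scaling 5 genes of the list were higher in the endothelial and 6 in the epithelial libraries.

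Nutrient and solute carriers were mixed. Of 25 tested genes 5 (20.0%, against 14.9% of all genes) were higher in the endothelial and 8 (32.0%, against 12.8%) in the epithelial libraries. Endothelial were Slc28a2, a concentrative nucleoside carrier (3.44 ± 0.46, SE), Slco2b1, an organic anion carrier (3.02 ± 0.35, SE), and Slco2a1, the prostaglandin carrier, which was at 59.0, 57.0 and 55.3 RPKM against 12.5, 21.6 and 18.3 RPKM (1.69 ± 0.28, SE, adjusted p = 0.00294). Epithelial were Slc39a4, a zinc importer at 34.6, 33.2 and 32.2 RPKM against 0.01, 0.41 and 0.85 RPKM (-4.63 ± 0.35, SE), the vitamin C carriers Slc23a2 (-3.59 ± 0.30, SE) and Slc23a1 (-2.41 ± 0.38, SE), the organic anion carrier Slco4c1 (-3.55 ± 0.50, SE) and the cationic amino acid carrier Slc7a2 (-2.98 ± 0.36, SE). Of 15 tested ABC transporters 8 (53.3%, against 14.9% of all genes) were higher in the endothelial libraries. They included the efflux pumps Abcg2 (2.83 ± 0.41, SE) and Abcb1b (2.12 ± 0.35, SE), while Abca8a, Abca8b and Abca9, neighbouring and related genes whose reads may be split between them, were higher in WAT stroma. Abcc3, a pump for conjugated compounds, was the 1 epithelial member (-2.99 ± 0.51, SE), where median-ratio scaling gave 2.

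In the list of regulated secretion 7 of 16 tested genes (43.8%, against 12.8% of all genes) were higher in the epithelial libraries. In the endothelial ones 1 was higher (6.25%, against 14.9%). Myo5c, a myosin of exocrine granules, was at 8.86, 13.5 and 17.1 RPKM against 0, 0.01 and 0 RPKM. Rab25, a small GTPase of apical recycling, was listed at 0 in all 3 endothelial libraries and was at 4.77, 12.9 and 10.9 RPKM in the epithelial ones. Vamp8, a vesicle SNARE of mucin and granule release (-3.19 ± 0.71, SE, adjusted p = 0.0109), Exph5, a Rab27 effector (-3.04 ± 0.34, SE), and Myo5b, a myosin of recycling endosomes (-2.63 ± 0.53, SE), were also higher.

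**Figure D3:**
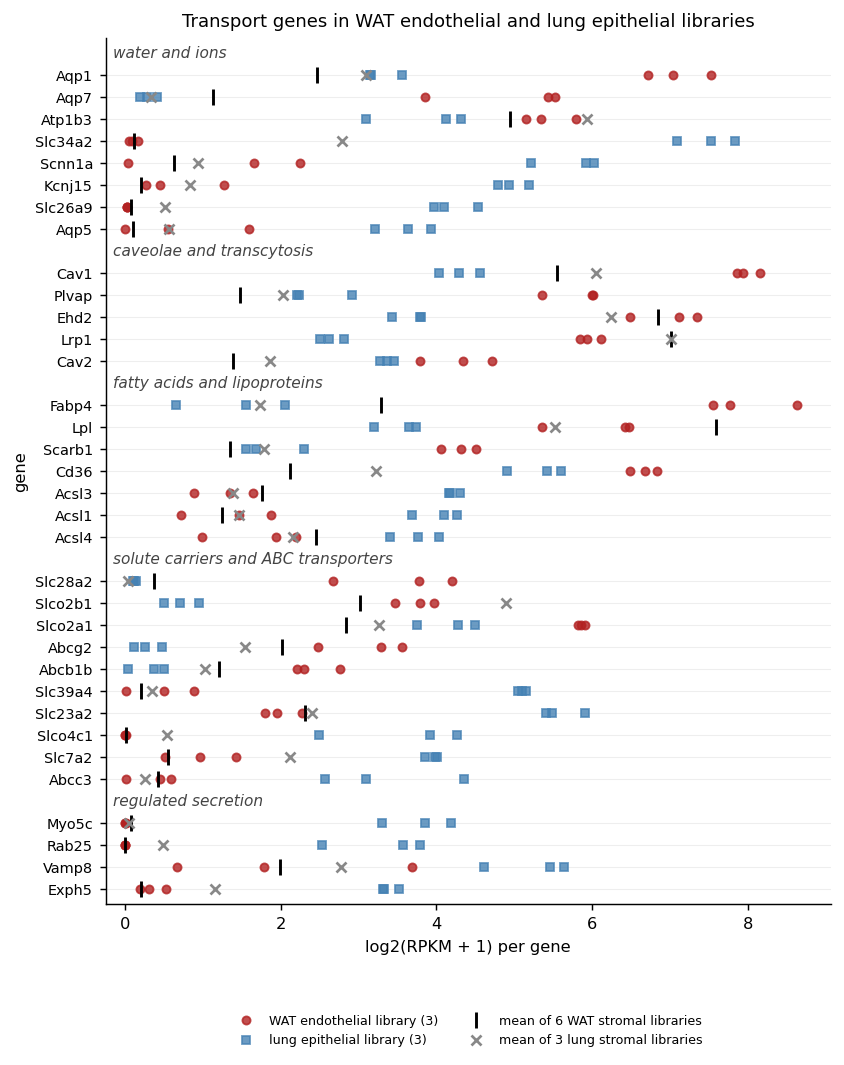
Level of transport and secretion genes (y axis, grouped by role) as log2(RPKM + 1) on the x axis in each WAT endothelial (red circles) and lung epithelial library (blue squares), with the mean of the 6 WAT stromal (black bars) and 3 lung stromal libraries (grey crosses). Aqp1, Aqp7, Cav1, Plvap and Fabp4 lie to the right in the endothelial libraries, and Slc34a2, Scnn1a, Slc39a4 and Myo5c in the epithelial ones, with stromal means of Lrp1 and Lpl above the endothelial points.

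Transcription factors of each lineage were found on its own side. Of 34 tested endothelial factors 26 were higher in the endothelial and 0 in the epithelial libraries (median difference 2.06). Erg, an ETS factor that maintains endothelial identity, was at 147, 138 and 68.2 RPKM against 18.1, 13.9 and 10.6 RPKM (2.92 ± 0.37, SE, adjusted p = 0.000703), and at 1.30 to 9.66 RPKM in the stromal means. The related factor Fli1 (3.58 ± 0.34, SE) and the SOX factors Sox18 (3.45 ± 0.52, SE) and Sox7 (3.22 ± 0.31, SE) were higher too. Meox2, a homeobox factor of vessels, had the largest difference of the list (4.10 ± 0.41, SE, adjusted p = 0.000232). Klf4, a flow-responsive factor, was at 135, 257 and 338 RPKM against 16.9, 25.7 and 26.5 RPKM, and was one of 5 members, with Klf2, Lmo2, Nkx2-3 and Id3, whose mean was higher in WAT stroma. Epas1, the hypoxia-inducible factor HIF-2 alpha, was at 237, 182 and 161 RPKM in the endothelial and at 204, 207 and 158 RPKM in the epithelial libraries (0.02 ± 0.27, SE, adjusted p = 0.967), and at 21.2 to 46.8 RPKM in the stromal means.

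Of 27 tested lung epithelial factors 19 were higher in the epithelial libraries and 1, Cebpd, in the endothelial ones. Nkx2-1, the factor that specifies lung epithelium, was at 36.9, 45.5 and 64.6 RPKM against 0.04, 0.03 and 0.05 RPKM (-5.55 ± 0.34, SE, adjusted p = 3.25e-05). Foxa1, a pioneer factor of endoderm, differed by -5.10 ± 0.32 (SE), Foxj1, the factor of motile cilia, by -4.80 ± 0.49 (SE), Myb, which acts early in multiciliated cells, by -3.75 ± 0.38 (SE), and the Iroquois factor Irx1 by -3.68 ± 0.37 (SE). The highest value of these 5 factors in an endothelial library was 2.61 RPKM, for Foxj1 in replicate 2. Cebpd, a stress-responsive C/EBP factor, was at 38.5, 21.6 and 34.3 RPKM against 11.3, 7.12 and 13.8 RPKM, and was higher still in WAT stroma (50.1 and 71.8 RPKM).

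Among factors of epithelial-mesenchymal transition (EMT) and splicing regulators, 6 of 9 tested genes (66.7%, against 14.9% of all genes) were higher in the endothelial libraries. The other 3 (33.3%, against 12.8%) were higher in the epithelial libraries. Zeb1 and Zeb2, which repress Cdh1, were at 25.3, 27.2 and 23.8 RPKM against 3.34, 4.10 and 2.92 RPKM (2.58 ± 0.29, SE) and at 34.5, 35.9 and 33.4 RPKM against 7.32, 5.09 and 5.26 RPKM (2.38 ± 0.28, SE). The epithelial splicing factors Esrp1 and Esrp2 were at 6.55, 12.6 and 8.91 RPKM and at 5.06, 8.98 and 10.1 RPKM in the epithelial libraries, with Esrp1 listed at 0 in all endothelial libraries and Esrp2 at no more than 0.02 RPKM. Rbfox2, a splicing factor of mesenchymal cells, differed by 1.78 ± 0.52 (SE) and Rbm47, an RNA-binding protein of epithelium, by -2.67 ± 0.41 (SE). All 6 genes on the endothelial side, Snai2, Zeb1, Zeb2, Prrx1, Tcf21 and Rbfox2, had a higher mean in WAT stroma than in the endothelial libraries, and the part of stromal RNA in them was not tested. Vim, the intermediate filament of endothelial and mesenchymal cells, was at 527, 378 and 543 RPKM against 30.2, 36.7 and 49.7 RPKM, with stromal means of 495 to 694 RPKM.

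**Figure D4:**
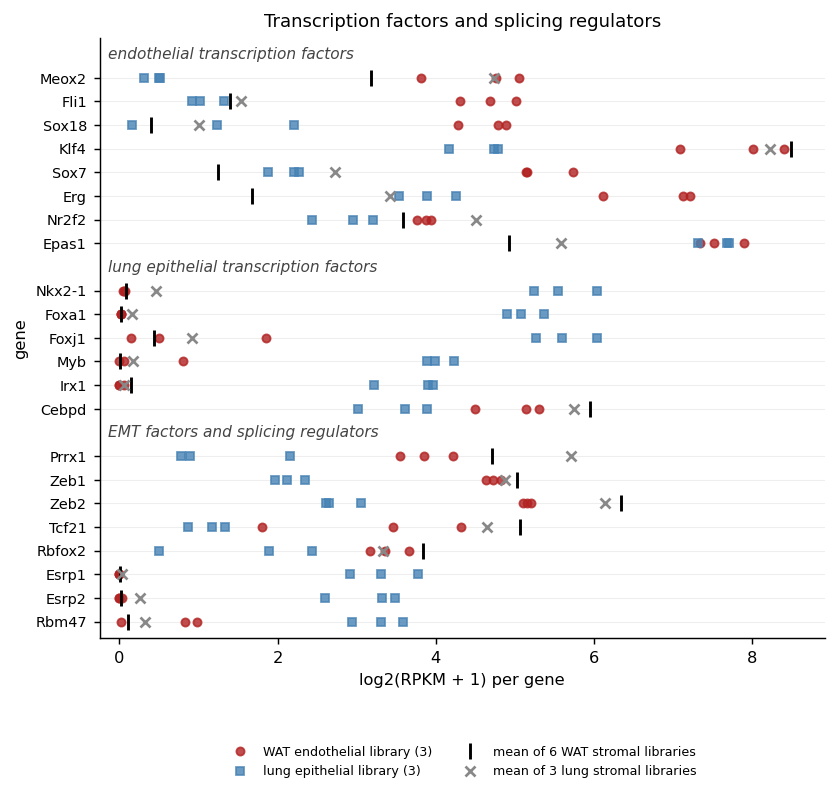
Level of transcription factors and splicing regulators (y axis) as log2(RPKM + 1) on the x axis in each WAT endothelial (red circles) and lung epithelial library (blue squares), with the mean of the 6 WAT stromal (black bars) and 3 lung stromal libraries (grey crosses). Erg, Fli1 and Sox18 stand clear of stroma in the endothelial libraries, Zeb1 and Zeb2 lie below the WAT stromal mean, and Epas1 overlaps between both populations and lies above both stromal means.

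Of 17 tested genes of glycolysis and lactate 2 were higher on each side (11.8%, against 14.9% and 12.8% of all genes) and 13 did not pass (median difference -0.11). With median-ratio scaling the numbers were 2 endothelial and 5 epithelial. Gapdh, often used as a control gene, differed by -0.32 ± 0.49 (SE, adjusted p = 0.695). Ldhb, the heart-type subunit of lactate dehydrogenase, was at 70.4, 100 and 103 RPKM in the epithelial and at 0.04, 1.16 and 4.39 RPKM in the endothelial libraries (-5.31 ± 0.56, SE, adjusted p = 0.000304). Slc16a3, a lactate exporter, was the other epithelial gene (-1.30 ± 0.37, SE, adjusted p = 0.0317). Hk2, a hexokinase, was at 12.7, 31.7 and 18.7 RPKM in the endothelial and at 3.01, 2.61 and 5.39 RPKM in the epithelial libraries (2.19 ± 0.42, SE) and was higher in WAT stroma. Pfkp, a phosphofructokinase, was at 10.7, 10.7 and 8.22 RPKM against 1.92, 2.14 and 2.12 RPKM (1.82 ± 0.32, SE).

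In the lists of the TCA cycle, fatty acid oxidation and oxidative phosphorylation, the genes that passed were all epithelial, but most did not pass. In the TCA cycle list 5 of 23 tested genes (21.7%, against 12.8% of all genes) were higher in the epithelial and 0 in the endothelial libraries, with a median difference of -0.66. Among them were the dehydrogenase Idh2, the succinyl-CoA ligase subunits Suclg1 and Suclg2 and Mdh1, the cytosolic malate dehydrogenase. These genes passed in 10 to 13 of 20 or 21 alternative settings. Of 20 genes of fatty acid oxidation 2 (10.0%) were higher in the epithelial libraries, the oxidation enzyme Hadh (-1.42 ± 0.30, SE) and Ppargc1a, the coactivator of mitochondrial genes (-2.95 ± 0.37, SE). Of 85 subunits and assembly factors of oxidative phosphorylation 5 were higher in the epithelial libraries (5.88%, below the 12.8% of all genes) although the median difference was -0.77, and with median-ratio scaling the number was 23. That scaling gave 8 epithelial genes in the TCA cycle and 4 in fatty acid oxidation, against 17.2% of all genes in that setting.

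Lipid synthesis was epithelial where it differed, with 8 of 30 tested genes (26.7%, against 12.8% of all genes) higher in the epithelial and 0 in the endothelial libraries (median difference -0.65). Lpcat1, which makes the dipalmitoyl lecithin of surfactant, was at 18.8, 27.1 and 27.5 RPKM against 2.77, 2.12 and 1.81 RPKM (-2.97 ± 0.32, SE, adjusted p = 0.000328), and Cds1, of phosphatidylinositol and cardiolipin synthesis, differed by -3.26 ± 0.46 (SE). The cholesterol pathway genes Sqle, squalene epoxidase (-3.41 ± 0.46, SE), and Hmgcs1, HMG-CoA synthase (-1.80 ± 0.34, SE), and Me1, malic enzyme (-1.74 ± 0.46, SE), were also higher.

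Xenobiotic metabolism had the lowest median difference of the metabolic lists (-2.38). Of 38 tested genes 24 (63.2%, against 12.8% of all genes) were higher in the epithelial and 4 (10.5%, against 14.9%) in the endothelial libraries. Cyp2f2, the cytochrome P450 of club cells, was at 1546, 2471 and 1923 RPKM against 0.90, 0.62 and 1.05 RPKM (-10.04 ± 0.28, SE, adjusted p = 1.63e-06), and Cbr2, a lung carbonyl reductase, at 2520, 3271 and 3578 RPKM against 1.54, 11.5 and 3.33 RPKM. The P450 genes Cyp2s1 (-5.95 ± 0.69, SE) and Cyp2b10 (-5.69 ± 0.33, SE) and the aldehyde dehydrogenase Aldh1a7 (-5.72 ± 0.32, SE) followed, and members of such families share sequence, so reads may be split between them. Higher in the endothelial libraries were the retinoic acid hydroxylase Cyp26b1 (2.62 ± 0.51, SE), the flavin monooxygenases Fmo1 (1.81 ± 0.30, SE) and Fmo2 (1.03 ± 0.30, SE) and the P450 Cyp1b1 (1.78 ± 0.39, SE), and the last 3 had higher means in WAT stroma. Of 24 tested antioxidant genes 8 (33.3%, against 12.8% of all genes) were higher in the epithelial libraries. Cat, catalase, was at 388, 380 and 334 RPKM against 65.8, 55.5 and 39.3 RPKM (-2.78 ± 0.28, SE, adjusted p = 0.000227), and Prdx6, a peroxiredoxin that also turns over surfactant lipid, at 108, 198 and 211 RPKM against 6.54, 8.67 and 13.3 RPKM (-4.04 ± 0.37, SE, adjusted p = 0.000157). Gclc, the enzyme that limits glutathione synthesis, differed by -2.81 ± 0.35 (SE), and Gpx2, an epithelial glutathione peroxidase, was listed at 0 in all 3 endothelial libraries. The secreted enzymes Gpx3 and Sod3 were higher in the endothelial libraries (2.44 ± 0.45 and 1.64 ± 0.46, SE) and higher again in WAT stroma.

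**Figure D5:**
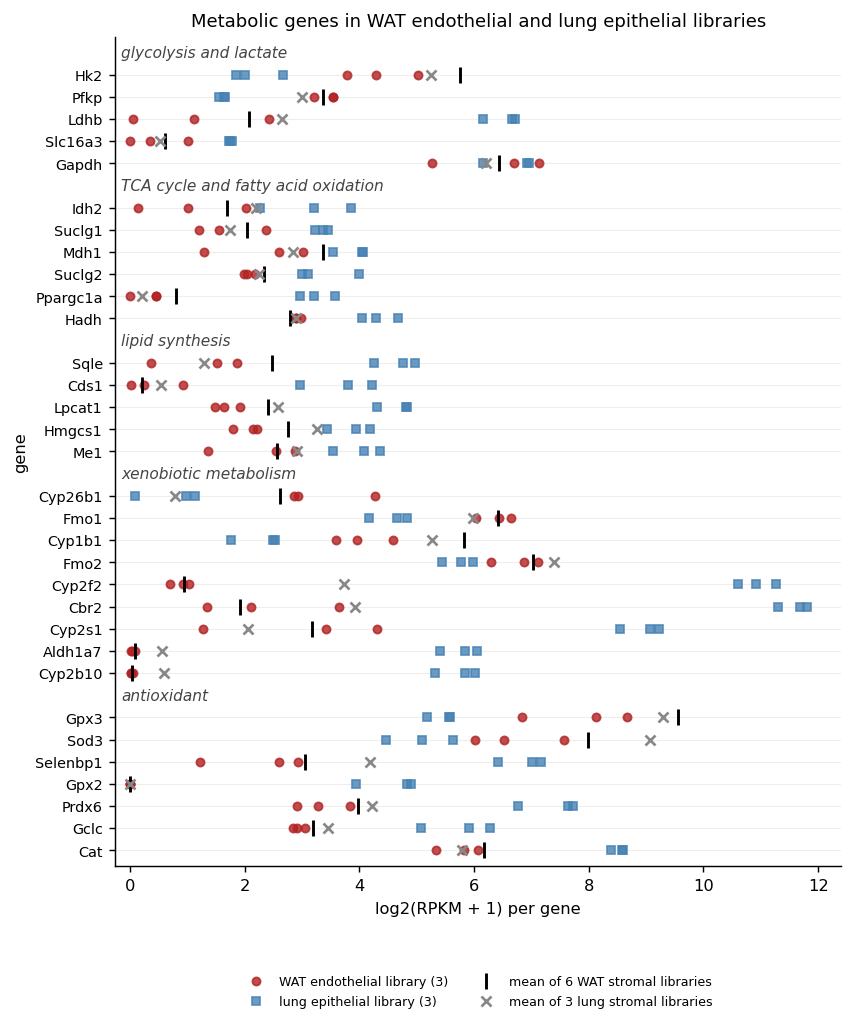
Level of metabolic genes (y axis, grouped by pathway) as log2(RPKM + 1) on the x axis in each WAT endothelial (red circles) and lung epithelial library (blue squares), with the mean of the 6 WAT stromal (black bars) and 3 lung stromal libraries (grey crosses). Cyp2f2, Cbr2, Ldhb, Prdx6 and Cat lie to the right in the epithelial libraries, Gapdh overlaps, and Gpx3 and Sod3 lie highest in stroma.

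Vascular receptors were higher in the endothelial libraries. Of 27 tested angiogenic and vascular receptors 22 were higher in the endothelial and 0 in the epithelial libraries (median difference 2.13), and in none of the 22 was the mean higher in WAT stroma. Tie1, an orphan receptor of the angiopoietin system (3.60 ± 0.48, SE), Eng, the TGF-beta co-receptor endoglin (3.46 ± 0.31, SE), Nrp2, a co-receptor for semaphorins and VEGF-C (3.08 ± 0.35, SE), and Adgrl4, an adhesion receptor of angiogenic endothelium (3.01 ± 0.37, SE), led that list with Flt4. Of 24 genes of nitric oxide, prostanoids, clotting and vessel tone 13 (54.2%, against 14.9% of all genes) were higher in the endothelial libraries. In the epithelial libraries 2 were higher (8.33%, against 12.8%). Procr, the protein C receptor, was at 129, 104 and 102 RPKM against 5.69, 4.21 and 5.56 RPKM (4.20 ± 0.27, SE, adjusted p = 3.7e-05), with WAT stromal means of 49.6 and 34.1 RPKM. Thbd, thrombomodulin (3.17 ± 0.29, SE), and Plat, tissue plasminogen activator (3.67 ± 0.32, SE), were among 6 of the 13 with a higher mean in WAT stroma, and Edn1, endothelin-1 (2.74 ± 0.36, SE), was not. The epithelial genes included the arginase Arg2 (-1.51 ± 0.39, SE).

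Growth factor signals usual in epithelium were divided, with 5 of 16 tested genes (31.2%) higher on each side, against 14.9% endothelial and 12.8% epithelial of all genes. With median-ratio scaling 4 were endothelial and 8 epithelial. Fgfr2, the receptor for FGF signals from lung mesenchyme, was at 13.4, 22.8 and 25.1 RPKM in the epithelial and at 2.25, 0.82 and 3.92 RPKM in the endothelial libraries (-2.75 ± 0.45, SE, adjusted p = 0.00254). Shh, the hedgehog ligand of epithelium, was listed at 0 in all 3 endothelial libraries and was at 4.91, 9.37 and 8.25 RPKM in the epithelial ones, and Erbb3, a neuregulin receptor, differed by -1.98 ± 0.34 (SE). Areg, the EGF receptor ligand amphiregulin, was at 23.0, 38.2 and 70.6 RPKM against 16.9, 1.59 and 0.29 RPKM, with endothelial replicate 1 near the lowest epithelial library. On the endothelial side were the receptors Fgfr1 (2.55 ± 0.64, SE) and Egfr (2.21 ± 0.30, SE), both higher in WAT stroma, the ligand Bmp4 (2.44 ± 0.47, SE), the receptor Ret (1.73 ± 0.49, SE) and the Notch ligand Dll1 (1.70 ± 0.42, SE).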

How the data were processed

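Cells were sorted by flow cytometry, their RNA was amplified (Ovation RNA-seq System V2) and the libraries were sequenced. The authors ran Tophat2 within Partek Flow (genome mm10 in the submitters' processing notes) and deposited RPKM values per RefSeq transcript with the number of alignments per library. Only 41 of 12698 transcripts stayed below 1 RPKM in all 15 libraries, so weakly expressed transcripts are largely missing from the table, and genes not listed are not analysed here. RPKM divides by mapped reads, so one abundant transcript lowers all others of its library. Counts per transcript were not used, and depth is given as alignments.

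Columns were matched to samples by library name, 0 value columns were left without a sample, and the lane was read from the library name. RPKM was summed per gene symbol. No model is stated for the study's RNA-seq data, so lmFit and eBayes (trend = TRUE) of limma 3.58.1, run in R 4.3.3, were applied to log2(RPKM + 1), for genes with at least 1 RPKM in at least 3 of the 6 libraries, and Benjamini-Hochberg adjusted p below 0.05 was the threshold. The fit was tested on simulated data. Cell types, junctions, transport, transcription factors, metabolism and signalling were described by 39 gene lists. The level of the stromal list was the median over its 24 genes of the percent of the mean in Il33+ WAT-MSC. Promoters and motifs were read from RefSeq tables (GRCm38.p6), with 1 window per symbol and 1 chromosome left out. Alternatives were the replicate number as a block, a lane term, a fit of all 15 libraries, 2 other scalings, a pseudocount of 0.1, 2 other filters, the most abundant transcript, and each library left out. Leaving out a library with a filter of 1 RPKM in at least 2 libraries was added after seeing the data. Python 3.11.15, numpy 2.4.6, pandas 2.3.3 and matplotlib 3.10.9 were used.

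The populations compared, the gene lists and the tests were chosen with earlier results of these data known. Genes were named by rule: the 10 largest differences in each direction without overlap, per list up to 5 genes past the threshold in each direction and up to 4 not past it with the highest levels, and a fixed set of 17, of which the text gives some. Nectin1, Fcgrt, Abca8b, Klf2, Lmo2, Nkx2-3, Id3 and Snai2, given as higher in stroma, were named after their values were seen. Some genes that the rule names are not reported here.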

Additional observations from a re-analysis of the deposited data

How the results depend on the processing

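Of 199 genes named and tested, not counting Ackr1, 180 were past the threshold. Of these, 138 passed under every alternative that could fit them, and 0 of the 180 changed direction. A replicate block gave 1489 genes higher in the endothelial and 1317 in the epithelial libraries and lost 0 of the 180 calls. Same-numbered libraries are not stated to share mice. Their deviations correlated weakly, at 0.112, 0.076 and 0.136, but each library correlated best with its own number. Whether they share more than a number is therefore not settled. Median-ratio scaling left 43.0% of the calls on the endothelial side against 53.8%, and Tjp1, Pkp4, Fmo2, Cebpd, Ret, Snai2 and Adgrf5 no longer passed (adjusted p = 0.0634 to 0.146). A filter of 5 RPKM gave 778 genes higher in the epithelial libraries, of fewer tested. Leaving out each library in turn gave 1085 to 2668 genes in all, 821 to 1491 higher in the endothelial and 258 to 1267 higher in the epithelial libraries. With 1 epithelial library left out (258 to 360) that filter drops genes present in the remaining 2 only, and with 1 RPKM required in at least 2 libraries the numbers were 1769 to 3186 in all, 909 to 1971 and 856 to 1257. Fits with a population of 2 assume that it varies like the other. The numbers per list moved with them, for example 2 to 10 epithelial claudins and tight junction proteins, lowest without an epithelial library, and 0 to 24 epithelial oxidative phosphorylation genes, highest without endothelial replicate 3. Spock2, Kcnj8, Pkp4, Tcf21, Rbfox2, Slc16a3, Fmo2, Sod3, Fgfr1, Ret and Areg passed in 8 to 13 of 16 to 21 alternatives. Signs turned only in genes that did not pass. With 1 library left out, F11r ran from -0.373 (without endothelial replicate 1) to 0.021 (without endothelial replicate 2). Epas1 was at -0.069 with the lane, -0.24 with median-ratio scaling, -0.38 with quantile normalization and -0.135 to 0.144 with 1 library left out. Ctnna1 was at -0.079 and -0.21 and Ceacam1 at -0.044 and -0.11 with the same 2 scalings. Gapdh was at 0.006 with the lane and ran from -0.701 (without endothelial replicate 3) to 0.235 (without replicate 1), Cd68 from -1.71 (without endothelial replicate 2) to 0.419 (without replicate 1), and Cd74, at 0.040 with the lane, from -0.376 to 0.292 (without epithelial replicates 1 and 3). The cause of these changes was not tested. The stromal level of 46.5% in the endothelial libraries was 54.1% against Il33- WAT-MSC, 49.5% against lung MSC, 42.7% as a ratio of sums, 50.4% with median-ratio scaling, and 33.4% to 54.2% with 1 library left out, lowest without replicate 3.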

Other observations

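Some genes stood higher in both barriers than in stroma. In 138 of the 9261 tested genes (1.49%) all 6 endothelial and epithelial libraries lay above all 9 stromal libraries, and in 214 (2.31%) all 6 lay below. Tested genes had to reach 1 RPKM in at least 3 of these 6 libraries, with no such demand on the stromal ones. That filter removed stromal genes low in both barriers, so the 2 counts cannot be set against each other. They are a description with no test, and the genes named from the set of 138 were chosen after their values were seen. Of the 138 genes, 26 were higher in the endothelial and 19 in the epithelial libraries, and 93 (67.4%, against 72.4% of all tested genes) did not pass between the 2 barriers. Besides F11r, Itgb4 and Epas1, they included Mall, a raft-associated MAL-family protein, at 18.6, 18.3 and 25.3 RPKM in the endothelial and 12.8, 10.1 and 15.7 RPKM in the epithelial libraries, against a highest stromal value of 1.39 RPKM. Fzd6, a Frizzled receptor of planar polarity, was at 17.3, 8.24 and 9.16 RPKM and at 6.38, 7.73 and 7.38 RPKM, against at most 0.86 RPKM in stroma. Ceacam1, an adhesion molecule of endothelium and epithelium, was at 27.7, 23.3 and 20.9 RPKM and at 17.2, 24.9 and 20.2 RPKM, against at most 5.01 RPKM. Cd36, the plakophilin relative Pkp4 and the adhesion receptor gene Adgrf5, known from lung and vessels, belonged to the same set but were higher in the endothelial libraries. The endothelial gene Cdh5 also belonged to that set, at 16.9 to 33.3 RPKM in the epithelial libraries against a highest stromal value of 16.6 RPKM. The endothelial identity list stood at a median of 6.71% to 10.9% of its endothelial level in the epithelial libraries. The part of endothelial RNA in the make-up of the set was not tested. Cd74, the invariant chain of MHC class II, was at 272, 264 and 186 RPKM in the endothelial and at 153, 245 and 387 RPKM in the epithelial libraries, with a stromal mean of 27.5 RPKM. Leukocyte RNA was present in some of these libraries, for example Cd68, a macrophage gene, at 0.53, 28.3 and 8.49 RPKM in the endothelial and 6.86, 13.9 and 15.5 RPKM in the epithelial ones. Endothelial replicate 1 had the lowest Cd68 and the highest Cd74 of its group, epithelial replicate 3 had the highest value of both, and the part of leukocyte RNA in Cd74 was not tested.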
